A study of Mus musculus with 72 samples.

Results

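The complement set described here holds 9 genes, namely *C1qa*, *C1qb*, *C1qc*, *C2*, *Cfb*, *C3*, *C6*, *C3ar1* and *C5ar1*. They were chosen by name, through the Ensembl identifiers of the count table, out of 55416 genes. Bulk RNA sequencing counts were examined for epididymal white adipose tissue (eWAT), liver and whole pituitary of 24 male FVB.129P2 mice, with 6 mice in each of 4 groups and 72 libraries in all. The dams either fed freely (FED) or received 20% less food than a paired FED dam (CR20) from embryonic day 15 until weaning. From 8 weeks of age the sons ate a control diet with 10% fat (CTRL) or a high fat diet with 45% fat (HFD), for 10 weeks by the account given of the sequenced mice, whereas the methods and the labels leave the time open. The groups are FED-CTRL, FED-HFD, CR20-CTRL and CR20-HFD, and no group carried a transgene or a deletion. The 3 tissues of a mouse bear its number in the labels, but the litter of each mouse is not given, so brothers could not be accounted for.

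Complement is a set of plasma proteins, receptors and regulators that tags targets for removal and calls in immune cells. The classical pathway starts when C1q, built from the products of *C1qa*, *C1qb* and *C1qc*, binds a target, and C2 then supplies the protease of the enzyme that cleaves C3. The alternative pathway reaches C3 with factor B, the product of *Cfb*, which factor D (adipsin, *Cfd*) activates, and C6 belongs to the terminal components that form a pore in membranes. Cleavage of C3 and C5 frees peptides that act on the receptors encoded by *C3ar1* and *C5ar1*, which are carried mainly by myeloid cells. Hepatocytes are the textbook source of C3, C6 and factor B in plasma, C1q comes mainly from macrophages, and adipose tissue is the main source of adipsin.

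The positions below are on GRCm39. The C1q genes lie beside each other on the minus strand of chromosome 4, with *C1qb* at chr4:136606009-136613511, *C1qc* at chr4:136616466-136620376 and *C1qa* at chr4:136623223-136626161. *C2* at chr17:35081578-35117241 and *Cfb* at chr17:35074852-35081559 follow each other on the minus strand with 18 bases between them, so the assignment of reads at their border is uncertain. *C3* lies at chr17:57510964-57535155, *C3ar1* at chr6:122823393-122833122 and *C5ar1* at chr7:15980668-15993465, all on the minus strand, and *C6* at chr15:4756525-4844580 on the plus strand. All 9 are annotated as protein coding.

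In eWAT the C1q genes varied together among mice of a group, with Pearson's r of 0.94 to 0.97. In liver they did so less closely, with r of 0.60 to 0.87. The 200 bases before the start of each canonical transcript are therefore shown, written 5′ to 3′ along the gene's strand, from chr4:136626162-136626361 for *C1qa*, chr4:136613512-136613711 for *C1qb* and chr4:136620377-136620576 for *C1qc*. Capitals mark the letters GAGGAA, the core recognised by the myeloid factor PU.1, or their complement TTCCTC where the match is on the other strand.
C1qa: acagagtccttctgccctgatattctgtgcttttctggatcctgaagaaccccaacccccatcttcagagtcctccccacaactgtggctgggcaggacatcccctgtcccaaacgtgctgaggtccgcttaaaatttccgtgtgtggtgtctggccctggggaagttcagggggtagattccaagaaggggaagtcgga
C1qb: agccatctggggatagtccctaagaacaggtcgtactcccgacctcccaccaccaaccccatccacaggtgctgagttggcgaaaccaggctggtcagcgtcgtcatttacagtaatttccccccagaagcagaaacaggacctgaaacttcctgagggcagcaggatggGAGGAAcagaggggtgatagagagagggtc
C1qc: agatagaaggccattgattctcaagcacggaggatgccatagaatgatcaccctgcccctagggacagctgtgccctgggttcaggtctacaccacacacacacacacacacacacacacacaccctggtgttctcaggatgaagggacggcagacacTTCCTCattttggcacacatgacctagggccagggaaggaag
The match ended 25 bases before the start of *C1qb* and 37 bases before that of *C1qc*, and *C1qa* held no match in this window. The same letters occurred on either strand in 18.8% of 21627 windows of this length before protein-coding genes.

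The window before *Cfb* lies in the last exon of *C2* but for the 18 bases nearest the *Cfb* start, and only its matches to the NF-kB pattern GGGAANNNCC are shown, each with 10 bases on either side, since *Cfb* had the lowest adjusted p-value of the soluble components in both eWAT comparisons with FED-HFD mice, without being called. They lie on the minus strand at chr17:35081699-35081728 and at chr17:35081606-35081635, and capitals mark the pattern, which is read on the other strand in the second.
Cfb distal: gcaaaagctaGGGAATCCCCaggattgtgc
Cfb proximal: gctttcacacGGAATTTCCCagttatgtaa
The matches ended 150 and 57 bases before the *Cfb* start. Of all windows, 4.17% held this pattern. Among the other members, *C3* held the C/EBP pattern TTGCNNAA 26 to 19 bases before its start, which 7.25% of windows held, and *C6* held the HNF1 pattern GTTAAT, which 4.83% held, together with GAGGAA. No window of *C2*, *C3ar1* or *C5ar1* held any of these letters, and the interferon pattern GAAANNGAAA, present in 2.44% of windows, was found before none of the 9 genes.

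The libraries held 9842813 to 27601208 counts assigned to genes, with a median of 19705838.5. Levels between samples are given as CPM, counts scaled to library size with TMM factors computed within each tissue, and levels between genes as TPM, which also divide by gene length. CPM of different tissues are thus not on the scale of the tissue contrasts, whose TMM factors span all 72 libraries. All 9 genes passed the filter on low counts in eWAT and liver, and 8 of 9 did in the pituitary, where *Cfb* was too low. Summed hepatocyte markers reached 82537 to 124981 CPM in liver, adipocyte markers 10798 to 37826 CPM in eWAT and pituitary hormone genes 232493 to 409877 CPM in the pituitary, as the labels have it. In eWAT, 3 libraries also held hepatocyte RNA (CR20-CTRL mouse 5 and FED-HFD mice 10 and 13, with 1594 to 6082 *Alb* counts against 48 to 770 in the other 21), and epididymis markers summed to 135 CPM in a CR20-CTRL library and 33.1 CPM in a CR20-HFD library.

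The first question was in which tissue each complement RNA was found. *C3*, the protein on which all pathways meet, stood at 2001 to 8055 CPM in the 24 livers (median 5845), at 469 to 2099 CPM in eWAT (median 1083) and at 17.5 to 63.3 CPM in the pituitary (median 26.6). In these CPM the highest eWAT library just passed the lowest liver, an overlap that depends on how the tissues are scaled. Every pituitary lay below every eWAT library in these CPM, and 27.5% of 19210 genes were called higher in eWAT than in the pituitary. *C6* ranged from 60.6 to 389 CPM in liver, from 5.51 to 38.4 CPM in eWAT and from 0.05 to 0.993 CPM in the pituitary, where it rested on 1 to 22 counts. *Cfb* ranged from 13.5 to 45.2 CPM in liver and from 8.72 to 25.2 CPM in eWAT, so these tissues overlapped, and in the pituitary 11 of 24 libraries held 3 counts or fewer.

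By the methods, liver RNA for sequencing was extracted on Zymo columns, and eWAT and pituitary RNA with RNAzol RT. In every contrast with liver, tissue and extraction therefore cannot be told apart. Averaged over the 4 groups, *C6* was 25.4-fold higher in liver than in eWAT (log2FC 4.67, SE 0.18), *C3* 7.77-fold (log2FC 2.96, SE 0.15) and *Cfb* 3.69-fold (log2FC 1.88, SE 0.13). The largest adjusted p-value among them was 3.03e-21, from edgeR's quasi-likelihood test with Benjamini-Hochberg adjustment. *C2* was 1.81-fold higher in liver, with an adjusted p-value of 6.21e-15 by edgeR, but below the log2FC of 1 used for calls. Between liver and eWAT, 5 of the 9 members passed both limits, against 51.7% of the 19210 genes tested (19.5% as higher in liver), so the number of calls was near the background. The values depend on how the tissues are scaled to each other. With library totals in place of TMM factors the median gene moved by -0.75 on the log2 scale between liver and eWAT (59.4% of genes called, 12.5% as higher), and the log2FC was 3.92 for *C6*, 2.22 for *C3* and 1.14 for *Cfb*, all still past both limits. For *C2* it was 0.11 (adjusted p-value 0.169 by edgeR), so no difference of *C2* between liver and eWAT is drawn from these data.

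The receptors went the other way. *C3ar1* stood at 14.1 to 292 CPM in eWAT but at 0.581 to 2.96 CPM in liver, and *C5ar1* at 17.2 to 247 CPM in eWAT but at 1.21 to 4.17 CPM in liver, with no overlap for either gene in CPM scaled within each tissue. Of the 19210 genes tested, 32.1% were called lower in liver than in eWAT. *C3ar1* was 15.5-fold lower in liver than in eWAT (log2FC -3.95, SE 0.16) and *C5ar1* 9.02-fold lower (log2FC -3.17, SE 0.14), with adjusted p-values of 2.69e-34 and 4.90e-31 by edgeR. The liver values rest on 8 to 43 counts for *C3ar1* and 16 to 74 for *C5ar1*, so smaller differences within the liver could not be resolved.

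The C1q genes were of one order in eWAT and liver. *C1qa* ranged from 164 to 361 CPM in eWAT, from 65.7 to 252 CPM in liver and from 49.9 to 112 CPM in the pituitary. In the contrast of liver with eWAT *C1qa* had a log2FC of -0.12 (SE 0.10) and an adjusted p-value of 0.265 by edgeR. The log2FC was -0.41 for *C1qb* and -0.52 for *C1qc*, both past the adjusted p-value and below the fold limit. With library totals it was -0.88 for *C1qa*, -1.16 for *C1qb* and -1.27 for *C1qc*, and the latter 2 were called lower in liver, so whether C1q is lower in liver by more than the fold limit depends on the scaling.

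The 8 members other than *Cfb* were called higher in eWAT than in the pituitary, where 54.1% of genes were called in either direction and 27.5% as higher. The log2FC ran from 1.45 for *C1qa* through 1.72 for *C1qb*, 1.98 for *C1qc*, 2.96 for *C2*, 3.67 for *C3ar1*, 4.62 for *C5ar1* and 5.15 for *C6* to 5.31 for *C3*. *Cfb* was too low to be tested within the pituitary and entered the comparison through the tissues where it is high, so it is left out of these counts and its levels stand as a description. Of the 8 others, 7 were called between liver and pituitary, all as higher in liver, against 62.3% of genes in either direction and 27.8% as higher. *C3ar1* was the exception, with a log2FC of -0.28 (SE 0.16, adjusted p-value 0.0897 by edgeR). With library totals only *C2*, *C3* and *C6* of the 8 were called there (log2FC from 3.21 to 9.21, against 64.7% of genes), while *C5ar1* and the C1q genes had log2FC of 0.70 to 0.85 and *C3ar1* of -0.89. Under either scaling these 8 members were called higher in eWAT than in the pituitary (54.7% of genes called with library totals), and the C1q genes by the least.

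Per length, *C3* led the members in FED-CTRL eWAT with 1005 ± 314 TPM (SD, n = 6), followed by *C1qa* at 560 ± 73.8, *C1qc* at 247 ± 28.7 and *C1qb* at 108 ± 12.7 TPM. *C2* at 52.8 ± 6.07 and *C5ar1* at 45.6 ± 7.24 TPM overlapped, as did *C3ar1* at 27.3 ± 6.38, *C6* at 18.7 ± 10.9 and *Cfb* at 16.9 ± 3.04 TPM. In liver *C3* reached 3651 ± 1150 TPM, *C1qa* 232 ± 43.6, *C6* 162 ± 45.2 and *C1qc* 80.3 ± 12.5 TPM, while *C2* (40.5 TPM), *C1qb* (38.4 TPM) and *Cfb* (33.9 TPM) overlapped. In the pituitary *C1qa* led with 85.0 ± 8.81 TPM, ahead of *C1qc* (25.8 TPM) and of *C1qb* and *C3*, which overlapped at 13.6 and 12.4 TPM. These levels depend on the gene length used. For *C1qb* the merged exon length is 6246 bases, and with the canonical transcript of 2532 bases and the like for all genes it was 151 TPM in eWAT. The 2 lengths also differ for other members, as for *C2* (4315 and 2658 bases) and *C1qc* (2860 and 1852 bases), but not for *C3ar1* (5011 bases). Which length holds in these tissues was not tested.

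**Figure D1:**
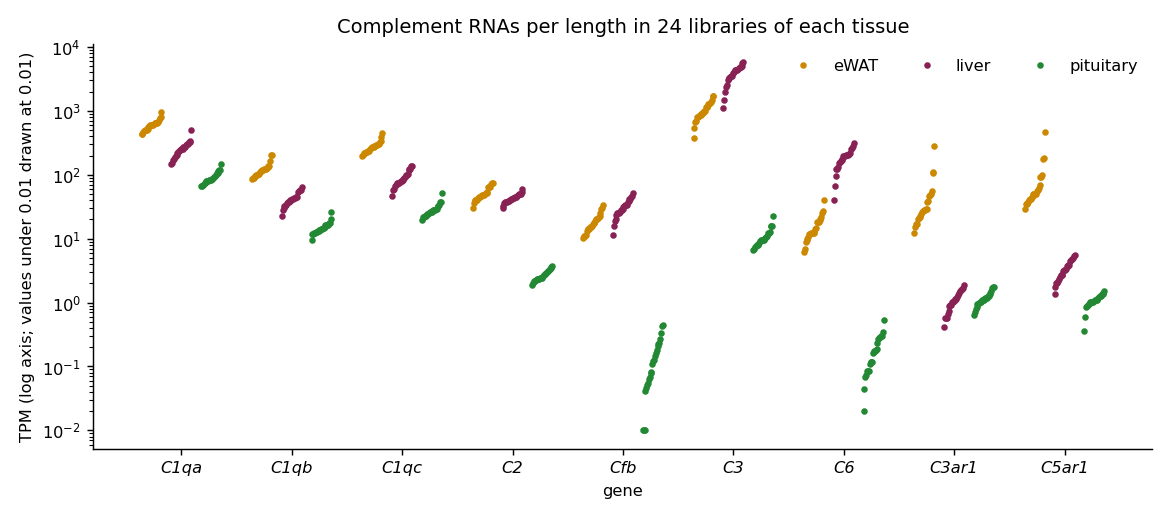
TPM (log axis) of the 9 complement genes, with each point a library and the 24 libraries of eWAT, liver and pituitary sorted from low to high. *C3*, *C6* and *Cfb* are highest in liver, *C3ar1* and *C5ar1* are highest in eWAT, and the C1q genes differ least between the tissues.

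Of 45 further complement genes fixed as a wider list, 32 were tested in eWAT, 40 in liver and 26 in the pituitary. The highest levels per length in FED-CTRL eWAT belonged to *Cfd* (18819 TPM) and to *Serping1*, the C1 inhibitor (1026 TPM). In liver they belonged to *Vtn*, a blocker of the terminal pore (2880 TPM), *Serping1* (1220 TPM), *Mbl2*, a starter of the lectin pathway (1070 TPM), and *C4b*, the substrate next to *C2* in the classical pathway (1043 TPM). In the pituitary *Clu*, another fluid-phase regulator, led with 180 TPM.

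The second question was what the HFD did to these RNAs in sons of FED dams. In eWAT the anaphylatoxin receptors rose and the soluble components did not pass the limits for a call (adjusted p-value of at most 0.055 and absolute log2FC of at least 1). *C3ar1* stood at 23.7 to 45.7 CPM in FED-CTRL mice (median 30.1) and at 52.3 to 292 CPM in FED-HFD mice (median 86.0). *C5ar1* stood at 20.8 to 30.6 CPM in FED-CTRL mice (median 28.9) and at 41.5 to 247 CPM in FED-HFD mice (median 75.7). For either receptor the 6 FED-HFD mice all lay above the 6 FED-CTRL mice, and FED-HFD mouse 23 was far above the rest.

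*C3ar1* was 3.67-fold higher in FED-HFD mice (log2FC 1.88, SE 0.35) and *C5ar1* 3.68-fold higher (log2FC 1.88, SE 0.31). The adjusted p-value was 0.00297 for each by edgeR's quasi-likelihood test with Benjamini-Hochberg adjustment. An exact two-sided permutation test over the 924 divisions of 12 mice gave p = 0.00216 for each, the smallest value that this design allows. The 2 members called compare with 4.7% of 15964 genes called in either direction and 4.18% called as higher, and 6.76% of genes had groups that did not overlap. A fit without FED-HFD mice 23 and 40 was added after seeing the data. Its log2FC was 1.44 for *C3ar1* (adjusted p-value 0.00319 by edgeR) and 1.51 for *C5ar1* (adjusted p-value 0.0015). Mouse 23 held the highest value of its group for both receptors. Mouse 40 held the highest C1q values and the lowest *C5ar1* of its group. The values of this fit thus depend on the choice of mice and are no test.

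*Cfb* stood at 11.0 to 17.0 CPM in FED-CTRL mice (median 12.1) and at 15.3 to 25.2 CPM in FED-HFD mice (median 20.2). Of the 6 FED-HFD mice, 4 lay above all FED-CTRL mice. *Cfb* had a log2FC of 0.58 (SE 0.17) and an adjusted p-value of 0.0284 by edgeR, which passes the p-value but not the fold limit, and the exact permutation test gave p = 0.0130. Without the 3 libraries with hepatocyte RNA, the *Cfb* log2FC was 0.51 and the adjusted p-value 0.0742, so the p-value no longer passed.

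The C1q genes moved less than the receptors. *C1qb* stood at 125 to 174 CPM in FED-CTRL mice (median 164) and at 141 to 296 CPM in FED-HFD mice (median 205), and the groups overlapped. Its log2FC was 0.46 (SE 0.16) with an adjusted p-value of 0.0682 by edgeR. Without mice 23 and 40 the log2FC was 0.22, a fall that follows from the choice, since mouse 40 held the highest *C1qb* of its group. The log2FC was 0.35 for *C1qc* (adjusted p-value 0.145) and 0.25 for *C1qa* (adjusted p-value 0.375), also by edgeR. *C3* (log2FC 0.21, SE 0.28), *C2* (log2FC -0.24, SE 0.21) and *C6* (log2FC -0.68, SE 0.33) had adjusted p-values of 0.682, 0.502 and 0.196 by edgeR. Of all genes tested in eWAT, 25.7% had an unadjusted p-value under 0.05, as did 5 of the 9 members.

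**Figure D2:**
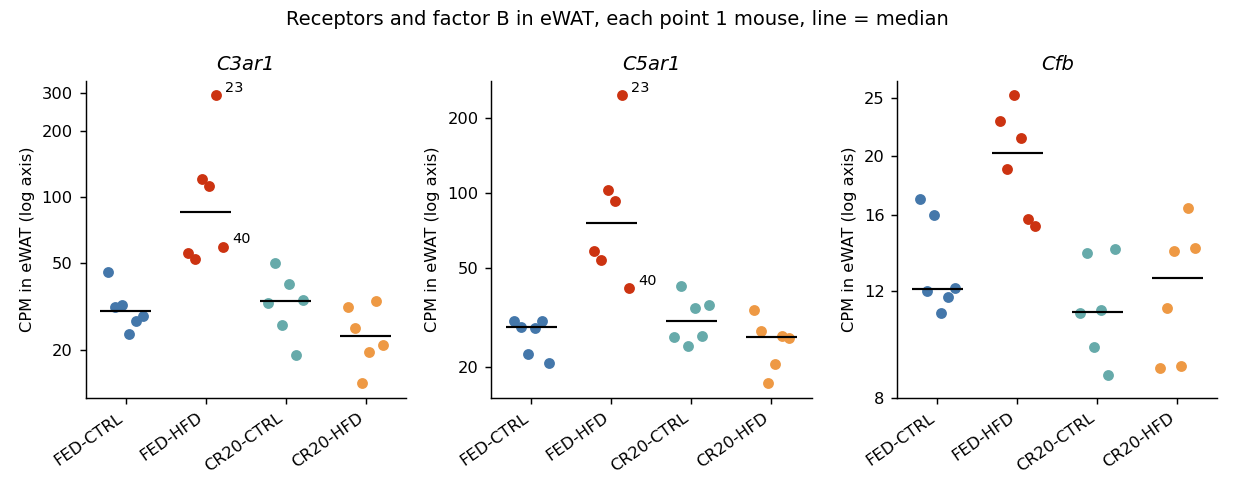
CPM (log axes) of *C3ar1*, *C5ar1* and *Cfb* in eWAT, with each point a mouse and each line the median of 6; numbers mark FED-HFD mice 23 and 40. For the receptors the FED-HFD mice (red) lie above all other mice of the plot but those of CR20-CTRL for *C5ar1*, where the highest value of 42.4 CPM passes the lowest FED-HFD value of 41.5 CPM.

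The third question was whether the maternal diet changed this response. In CR20 sons the receptors did not rise with the HFD. *C3ar1* stood at 19.0 to 50.1 CPM in CR20-CTRL mice (median 33.5) and at 14.1 to 33.6 CPM in CR20-HFD mice (median 23.3), with a log2FC of -0.48. *C5ar1* stood at 24.2 to 42.4 CPM in CR20-CTRL mice (median 30.6) and at 17.2 to 33.8 CPM in CR20-HFD mice (median 26.4), with a log2FC of -0.31. The groups overlapped for both genes. No member was called in CR20-HFD vs CR20-CTRL, where the log2FC of the 9 ran from -0.48 to 0.11 and the lowest adjusted p-value was 0.934 by edgeR, and 0% of genes were called (6.03% at an unadjusted p-value under 0.05).

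On the HFD, both receptors were lower in sons of CR20 dams than in sons of FED dams. *C3ar1* had a log2FC of -2.26 (SE 0.35) and *C5ar1* of -1.97 (SE 0.31) in CR20-HFD vs FED-HFD, each with an adjusted p-value of 0.000601 by edgeR. Every CR20-HFD mouse lay below every FED-HFD mouse for both genes, and the exact permutation test gave its smallest p-value of 0.00216. The 2 calls compare with 5.49% of genes called, 4.78% as lower, and 6.66% without overlap. Without FED-HFD mice 23 and 40 the log2FC was -1.82 for *C3ar1* (adjusted p-value 0.000316 by edgeR) and -1.60 for *C5ar1* (adjusted p-value 0.000257). These values too depend on the choice of mice, made after seeing the data, and are no test.

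*Cfb* stood at 8.95 to 16.4 CPM in CR20-HFD mice (median 12.6), and 5 of these 6 mice lay below all FED-HFD mice. Its log2FC in CR20-HFD vs FED-HFD was -0.70, with an adjusted p-value of 0.00759 by edgeR and p = 0.00649 by the exact permutation test, again below the fold limit. The log2FC was -0.40 for *C1qb* (adjusted p-value 0.0886), -0.27 for *C1qc*, -0.16 for *C1qa*, -0.36 for *C3*, 0.28 for *C2* and 0.23 for *C6*, none past the adjusted p-value by edgeR. On the control diet no member was called in CR20-CTRL vs FED-CTRL, with log2FC from -0.22 to 0.22, a lowest adjusted p-value of 0.909 by edgeR, and 0% of genes called (7.39% at an unadjusted p-value under 0.05).

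The difference between the responses was tested as an interaction, the HFD effect in CR20 sons minus that in FED sons. *C3ar1* had an interaction log2FC of -2.35 (SE 0.49) and *C5ar1* of -2.20 (SE 0.43), each with an adjusted p-value of 0.0322 by edgeR, and 2.27% of genes were called (2.23% as lower). The calls of the interaction were lost when any of 9 single mice was left out (FED-CTRL 15, 16, 41 or 42, CR20-CTRL 5, 47 or 49, and CR20-HFD 31 or 32), with adjusted p-values up to 0.072, while the log2FC stayed between -2.50 and -1.81 for *C3ar1* and between -2.35 and -1.67 for *C5ar1*. The other 7 members were not called. The comparisons share groups with each other, so their values stand side by side and are not independent of each other.

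**Figure D3:**
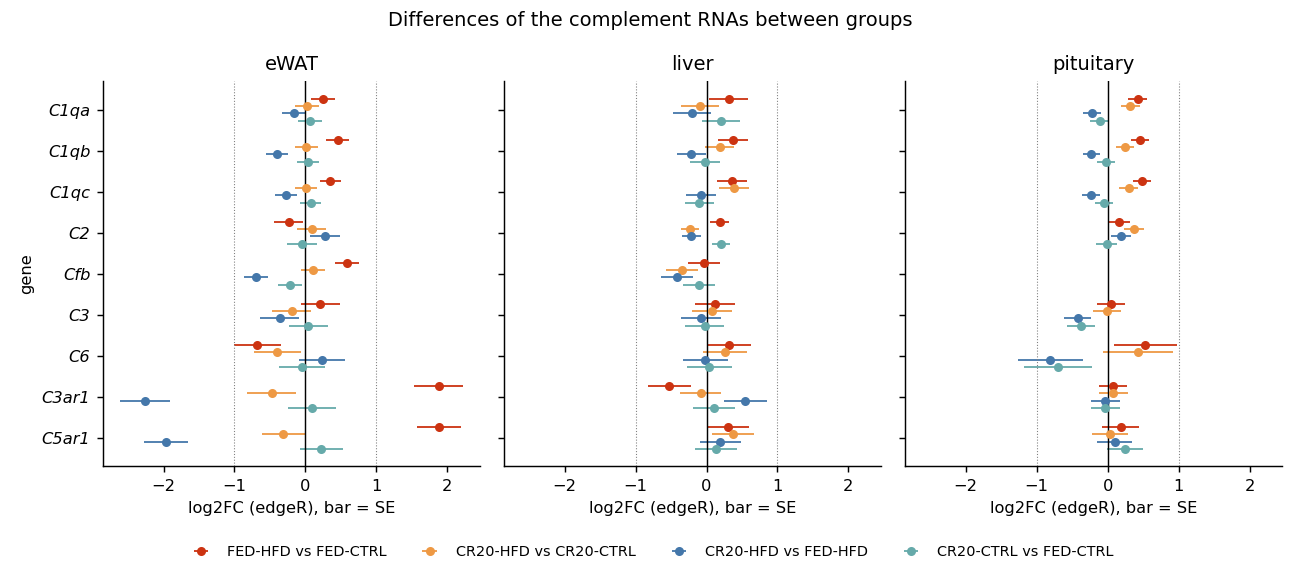
Log2FC (x axis) of the 9 genes in eWAT, liver and pituitary for 4 comparisons, with bars of 1 SE from edgeR; dotted lines mark the fold limit and *Cfb* was not tested in the pituitary. In eWAT, *C3ar1* and *C5ar1* lie at 1.88 in FED-HFD vs FED-CTRL and at -2.26 and -1.97 in CR20-HFD vs FED-HFD, and in liver and pituitary no gene passed the limits.

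Part of the macrophage markers moved with the receptors. The 12 markers summed to 1324 to 1940 CPM in FED-CTRL eWAT, 2038 to 9966 CPM in FED-HFD, 962 to 2148 CPM in CR20-CTRL and 1054 to 1837 CPM in CR20-HFD. Of the 12, 6 were called higher in FED-HFD vs FED-CTRL (log2FC from 1.06 to 2.25, with *Cd84*, *Cd68*, *Adgre1*, *Lyz2* and *Itgam* among them), against 4.18% of all genes, and 7 lower in CR20-HFD vs FED-HFD (the same 6 genes and *Fcgr1*), against 4.78%. The markers not called in FED-HFD vs FED-CTRL had log2FC of 0.99 (*Fcgr1*), 0.77 (*Csf1r*), 0.68 (*Mrc1*), 0.62 (*Cd14*), -0.19 (*Mertk*) and -0.33 (*Cd163*). In bulk tissue, a change in the number of macrophages and a change in RNA per macrophage cannot be told apart. The part of these markers in the receptor result was not tested.

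The levels can be set against the marker sum within each library. *C3ar1* CPM came to 1.69% to 2.36% of the macrophage sum in FED-CTRL mice (median 1.85%) and to 2.26% to 3.28% in FED-HFD mice (median 2.75%). In CR20-CTRL the *C3ar1* share was 1.59% to 3.14% and in CR20-HFD 1.34% to 2.16%, so the FED-HFD shares overlapped those of FED-CTRL and CR20-CTRL and lay above all those of CR20-HFD. The *C5ar1* share was 1.18% to 2.06% in FED-CTRL, 1.57% to 2.70% in FED-HFD, 1.65% to 2.76% in CR20-CTRL and 1.44% to 2.39% in CR20-HFD, so the groups overlapped. The summed C1q genes went from 27.2% to 39.6% of the macrophage sum in FED-CTRL mice (median 32.9%) to 7.64% to 36.4% in FED-HFD mice (median 20.9%), and stood at 25.6% to 54.8% in CR20-CTRL mice (median 30.8%) and at 32.6% to 43.9% in CR20-HFD mice (median 41.5%). These ratios are descriptions and were not tested.

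The variation between mice of a group was also set against the marker lists. Each library was taken as its log2 deviation from its own group mean, 24 libraries a tissue, and 80 relations of members with marker lists were computed with p-values from permutations within groups, adjusted by the Benjamini-Hochberg method. In eWAT, *C3ar1* followed the macrophage list with Pearson's r = 0.94 (permutation p = 1e-05, the smallest they can give, adjusted p = 0.0002) and Spearman's rho = 0.89 (permutation p = 1e-05), and r was 0.90 without mice 23 and 48, which lay farthest out. *C5ar1* followed it with r = 0.86 (permutation p = 8e-05, adjusted p = 0.000914), rho = 0.81 (permutation p = 4e-05) and r = 0.79 without those mice. The C1q genes had r of 0.26 to 0.42 with that list, with permutation adjusted p-values of 0.409 to 0.689. With the stromal progenitor list the C1q genes had r of 0.45 to 0.52, with permutation adjusted p-values of 0.128 to 0.262. So the receptors rose and fell with the macrophage markers also among mice of a group, and no such relation passed for C1q in eWAT. The macrophage list averages markers that moved in different directions between groups, so a low r with it does not set C1q apart from macrophages.

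*C3* and *C2* followed another list. In eWAT, *C3* had r = 0.86 with the 6 mesothelium markers (permutation p = 1e-05, adjusted p = 0.0002), rho = 0.83 (permutation p = 5e-05) and r = 0.78 without mice 49 and 6. *C2* had r = 0.80 (permutation p = 1e-05, adjusted p = 0.0002), rho = 0.84 (permutation p = 2e-05) and r = 0.83 without them. Mesothelium is the cell layer that covers the fat pad, and its marker sums varied widely between libraries, from 337 to 704 CPM in FED-CTRL, 157 to 817 in FED-HFD, 142 to 1433 in CR20-CTRL and 54.3 to 794 in CR20-HFD. The 8 stromal progenitor markers gave *C3* r = 0.48 (permutation p = 0.0297, adjusted p = 0.157), rho = 0.47 and r = 0.50 without mice 23 and 46. The 5 hepatocyte markers tested in eWAT gave r of -0.12 for *C3*, 0.22 for *C6* and 0.27 for *Cfb*, none past the adjustment.

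The adipocyte list went against the receptors, with r = -0.75 for *C3ar1* (permutation p = 0.00062, adjusted p = 0.00496), rho = -0.52 (permutation p = 0.00621) and r = -0.52 without mice 23 and 5. For *C5ar1* it was r = -0.73 (permutation p = 0.00376, adjusted p = 0.0273), rho = -0.42 (permutation p = 0.0334, adjusted p = 0.191) and r = -0.39 without them, so this relation rested on those mice. FED-HFD mouse 23 held 10798 CPM of adipocyte markers and CR20-CTRL mouse 5 held 11766 CPM, the lowest of the 24.

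**Figure D4:**
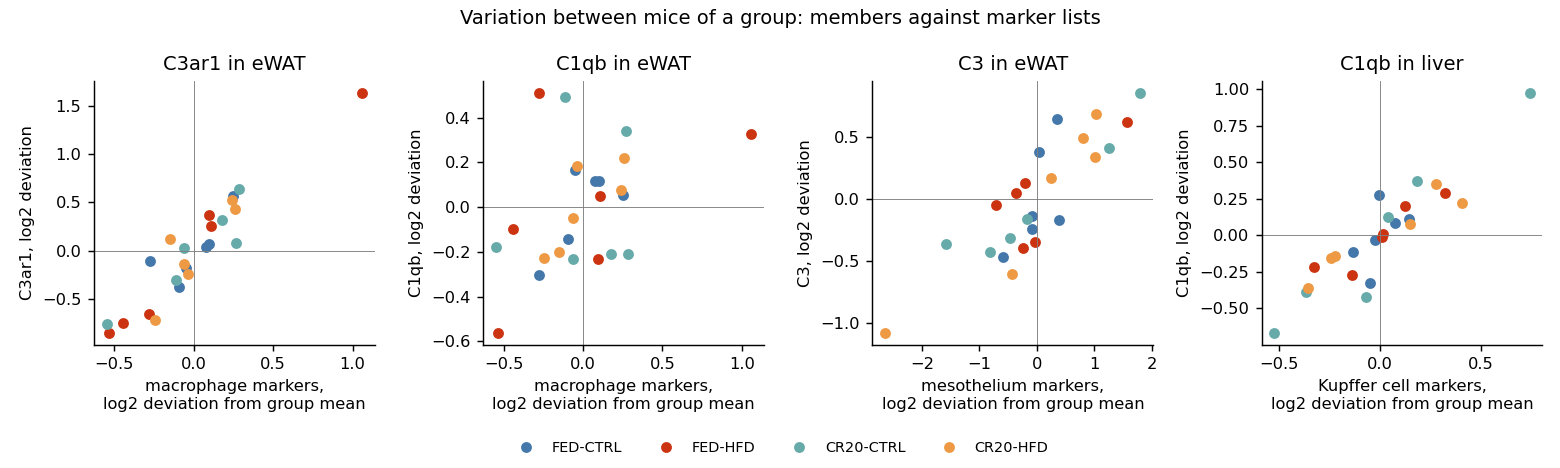
Log2 deviation from the group mean of a complement gene (y axis) against that of a marker list (x axis), with each point a mouse in the colour of its group. *C3ar1* follows the macrophage list in eWAT (r = 0.94), the relation of *C1qb* to that list did not pass the adjustment (r = 0.42), *C3* follows the mesothelium list (r = 0.86) and liver *C1qb* the Kupffer cell list (r = 0.91).

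Among themselves, the C1q genes, *C3ar1* with *C5ar1*, and *C2* with *C3* formed sets, over 24 eWAT libraries that share tissue and depth. The C1q genes had r of 0.94 to 0.97 with each other, *C3ar1* had r = 0.88 with *C5ar1*, and *C2* had r = 0.72 with *C3*. Between sets, *C1qa* and *C3ar1* had r = 0.06 and *C2* and *C5ar1* r = -0.63. *C1qa* also had r = 0.52 with *C2* and 0.45 with *C3*, so the sets were not fully apart. The genes most like a member, outside the set and among 15913 genes, were *Fcna* for *C1qa* (r = 0.83), *Ifi202b* for *C1qb* (r = 0.83) and *Ifi205* for *C1qc* (r = 0.78). *C3ar1* was most like *Nckap1l* (r = 0.95), a blood cell actin regulator, and *C5ar1* most like *Slc11a1* (r = 0.95), a metal transporter of phagocytes. *C3* was most like *Sema3a* (r = 0.93) and *Cdh11* (r = 0.92), followed by the mesothelium marker *Wt1* (r = 0.91), and *C2* most like *Tmem98* (r = 0.92), *Efemp1* (r = 0.89) and *C1ra* (r = 0.88), which encodes the protease next to C1q. *Cfb* and *C6* had weaker partners, with highest r of 0.72 (*Sgsm3*) and 0.75 (*Abca6*).

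Of the 32 further complement genes tested in eWAT, 4 were called higher and none lower in FED-HFD vs FED-CTRL, against 4.18% and 0.514% of all genes, with a list median log2FC of 0.10 beside -0.00164 over all genes. They were the second C5a receptor *C5ar2* (1.81, adjusted p-value 0.00965 by edgeR) and the subunits of the C3 fragment receptors, *Itgb2* (2.04, adjusted p-value 0.00371), *Itgax* (2.25, adjusted p-value 0.0116) and *Itgam* (1.06, adjusted p-value 0.0512). In CR20-HFD vs FED-HFD the same 4 genes were called lower, against 4.78% of all genes, with log2FC of -2.16 for *C5ar2*, -2.38 for *Itgb2*, -2.71 for *Itgax* and -1.38 for *Itgam*, and the list median was -0.05. All of the genes called were receptors or their subunits but for *Cfd*, which was higher in CR20-HFD vs FED-HFD (log2FC 1.49, adjusted p-value 0.0226 by edgeR, with 0.714% of all genes called as higher). *Cfd* stood at 889 to 18021 TPM in FED-HFD mice and at 23672 to 34526 TPM in CR20-HFD mice, and the lowest FED-HFD value is far under the FED-CTRL range of 13265 to 23615 TPM.

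Hepatocyte RNA in 3 eWAT libraries bears on the hepatic members there. If that RNA had the composition of the median liver, the *Alb* CPM of these libraries would stand for 0.628% to 4.52% of their *C3* CPM, for 3.85% to 15.0% of their *C6* CPM and for up to 1.37% of their *Cfb* CPM, and its composition was not tested. Without these libraries the receptors had log2FC of 2.08 (*C3ar1*) and 2.06 (*C5ar1*) in FED-HFD vs FED-CTRL, each with an adjusted p-value of 0.00217 by edgeR.

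In the liver no member was called between groups. *C3* stood at 2971 to 7470 CPM in FED-CTRL mice (median 5936), 5008 to 7216 in FED-HFD (median 6014), 2001 to 8055 in CR20-CTRL (median 6171) and 3573 to 7413 in CR20-HFD (median 5627). *C6* stood at 126 to 267 CPM in FED-CTRL mice, 174 to 302 in FED-HFD, 60.6 to 340 in CR20-CTRL and 167 to 389 in CR20-HFD. *Cfb* stood at 28.3 to 45.2, 18.7 to 41.1, 13.5 to 44.6 and 19.0 to 32.7 CPM in the same order. The groups overlapped for each of the 3 hepatic genes, and the medians lay closer together than the mice of a group.

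Across the 5 liver tests, 0 of 9 members were called and the lowest adjusted p-value was 0.551 by edgeR. Of all 13787 genes tested, 0.0943% were called for the HFD effect in FED sons (6.66% at an unadjusted p-value under 0.05) and 0.377% for that in CR20 sons (9.57%). The contrasts of CR20 with FED sons called 0% on the HFD (3.58% unadjusted) and 0% on the control diet (2.17% unadjusted), and the interaction 0% (1.76% unadjusted). The log2FC for *C3* was 0.12 (SE 0.28) in FED-HFD vs FED-CTRL and -0.08 (SE 0.28) in CR20-HFD vs FED-HFD. *C1qb* had a log2FC of 0.38 (SE 0.21) in FED-HFD vs FED-CTRL, with p = 0.0130 in the exact permutation test but an adjusted p-value of 0.856 by edgeR. None of the 40 further complement genes was called in any liver comparison.

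The CR20-CTRL group was the widest in liver. Mice 4 and 5 held 2412 and 2001 CPM of *C3*, against 5249 to 8055 CPM in the other 4, and 88.5 and 60.6 CPM of *C6* against 174 to 340 CPM. The same livers held the most *C1qa*, 252 and 187 CPM against 65.7 to 115 CPM, and their Kupffer cell markers summed to 757 and 573 CPM against 235 to 377 CPM. In mouse 5 *C1qc* was nonetheless the lowest of its group, at 45.8 CPM. A fit without these 2 livers was added after seeing the data. As they held the most *C1qa* of their group, its shift follows from the choice and is no test. In CR20-HFD vs CR20-CTRL the log2FC was then 0.58 for *C1qa* (adjusted p-value 0.289 by edgeR) in place of -0.09. For *Cfb* it was -0.58 (adjusted p-value 0.293 by edgeR) in place of -0.35. *C1qa* in CR20-CTRL vs FED-CTRL went from 0.20 to -0.47, again by the choice of mice. No member was called with or without them.

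**Figure D5:**
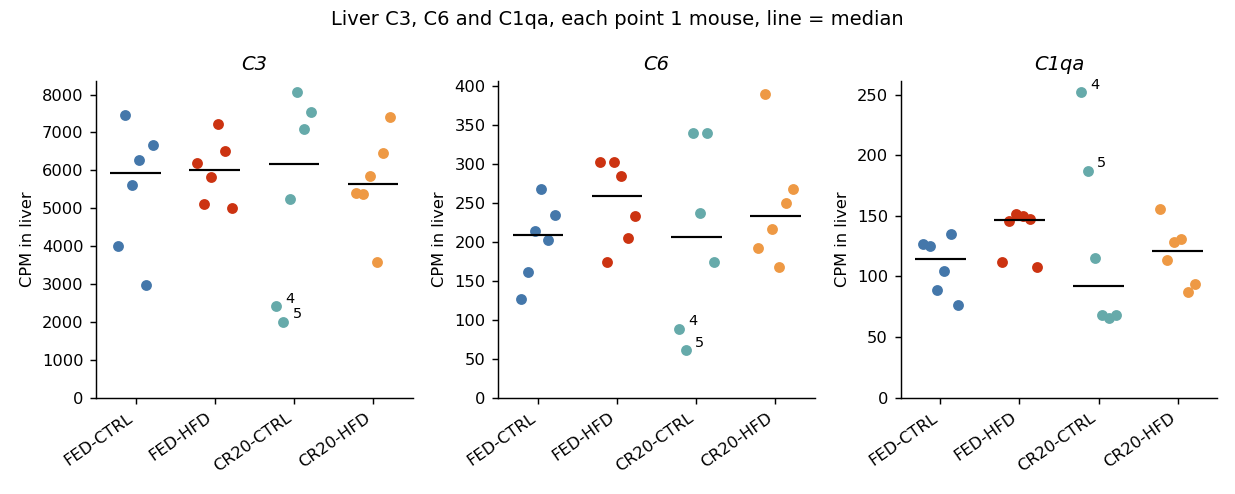
CPM of *C3*, *C6* and *C1qa* in liver, with each point a mouse and each line the median of 6; the numbers mark CR20-CTRL mice 4 and 5. These 2 mice are lowest of their group for *C3* and *C6* and highest for *C1qa*, and the 4 groups overlap for every gene.

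Liver C1q followed the markers of the resident macrophages. Among mice of a group, *C1qb* had r = 0.91 with the 5 Kupffer cell markers (permutation p = 1e-05, adjusted p = 0.0002), rho = 0.90 (permutation p = 1e-05) and r = 0.82 without mice 47 and 4. *C1qc* had r = 0.85 (permutation p = 3e-05, adjusted p = 0.00048), rho = 0.78 and r = 0.77 without them. *C1qa* had r = 0.76 (permutation p = 0.0003, adjusted p = 0.00267), rho = 0.65 and r = 0.58. The hepatocyte list gave r of 0.07 with *C3*, 0.17 with *C6* and -0.08 with *Cfb*, none past the adjustment.

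The liver partners of the C1q genes were myeloid in part. *C1qa* was most like *Tmsb4x*, *Tyrobp* and *Cyba* (r = 0.95 each), *C1qb* most like *Aif1* (r = 0.89) and *C1qc* most like *Ctss* (r = 0.90), of which *Tyrobp*, *Aif1* and *Ctss* are commonly used as myeloid genes. *C3* was most like *Camsap3* (r = 0.98) and *C6* most like *Cyp4a12b* (r = 0.95), and they had r = 0.70 with each other. *C5ar1* was most like *Ppt2* (r = 0.91) and had r = 0.60 with *C3* and 0.58 with *C6*, against 0.35 with the macrophage list (permutation adjusted p = 0.380), so it did not group with C1q in liver. *Cfb* was most like *Ctnnb1* (r = 0.93), *C2* most like *Dennd2d* (r = 0.78) and *C3ar1*, on few counts, most like *Meis2* (r = 0.67). *C1qa* and *C3* had r = -0.79 in liver and 0.45 in eWAT, descriptions over 24 libraries in each tissue, and mice 4 and 5 were at one end in liver. *C1qa* made up 40.0% to 61.9% of the C1q reads in liver and 35.2% to 41.7% in eWAT. Its canonical transcript has 1087 bases, and that of *C3* has 5158. RNA quality is not given in the sources used here, and the part of quality or transcript length in these liver relations was not tested.

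In the pituitary the C1q genes had higher medians on the HFD, by a margin that did not pass the adjustment. *C1qa* stood at 54.9 to 84.9 CPM in FED-CTRL mice (median 65.6), 64.7 to 112 in FED-HFD (median 92.2), 49.9 to 82.1 in CR20-CTRL (median 59.8) and 60.3 to 95.4 in CR20-HFD (median 76.5). *C1qb* stood at 36.3 to 46.8 CPM (median 41.9), 39.9 to 77.3 (median 58.1), 32.5 to 50.3 (median 41.5) and 41.6 to 57.5 (median 49.1) in the same order. *C1qc* stood at 32.2 to 39.5 CPM (median 36.3), 35.8 to 69.8 (median 49.6), 28.4 to 43.2 (median 34.2) and 36.0 to 53.9 (median 42.0). For each gene the HFD group had the higher median in sons of FED and of CR20 dams, and the groups overlapped.

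In FED-HFD vs FED-CTRL the log2FC was 0.42 for *C1qa*, 0.46 for *C1qb* and 0.48 for *C1qc*, with unadjusted p-values of 0.00334, 0.00103 and 0.000951 and adjusted p-values of 0.268, 0.207 and 0.207 by edgeR. The exact permutation test gave p = 0.0368, 0.0260 and 0.0238. No gene at all was called (0% of 16657, with 9.64% at an unadjusted p-value under 0.05 and 4.41% as higher). In CR20-HFD vs CR20-CTRL the log2FC was 0.32, 0.25 and 0.30, with adjusted p-values of 0.623, 0.704 and 0.650 by edgeR.

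Averaged over both maternal groups, a contrast added after seeing the data, the HFD effect on *C1qa*, *C1qb* and *C1qc* was 0.37, 0.35 and 0.39 on the log2 scale with adjusted p-values of 0.195, 0.195 and 0.162 by edgeR, where 0.024% of genes had an adjusted p-value of at most 0.055. Macrophage markers summed to 94.4 to 148 CPM in the pituitary and no C1q gene followed that list there (r of 0.10 to 0.19). Of the Kupffer cell markers, *Clec4f* and *Cd5l* had 0 counts in all 24 pituitaries.

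The remaining members were low in the pituitary and none was called. *C2* had a log2FC of 0.37 in CR20-HFD vs CR20-CTRL, with an unadjusted p-value of 0.0155 and an adjusted p-value of 0.616 by edgeR. *C3* reached 63.3 CPM in FED-HFD mouse 10, where adipocyte markers summed to 357 CPM, against 17.5 to 39.8 CPM of *C3* in the other groups. Its median was 24.6 CPM in CR20-CTRL and 32.8 CPM in FED-CTRL mice, with p = 0.0390 in the exact permutation test and no call by edgeR. On the HFD the medians were 25.8 CPM in CR20 and 26.9 CPM in FED sons, with p = 0.327 in the exact permutation test. *C3ar1* stood at 1.79 to 4.20 CPM and *C5ar1* at 0.406 to 1.98 CPM. *C6* had a log2FC of -0.81 (SE 0.45) in CR20-HFD vs FED-HFD, on counts of 3 to 22, and was not called. The CR20-HFD vs FED-HFD, CR20-CTRL vs FED-CTRL and interaction tests called 0% of genes, with 6.77%, 17.3% and 11% at an unadjusted p-value under 0.05, and CR20-HFD vs CR20-CTRL called 0% with 7.28%.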

How the data were processed

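Per the labels and methods, reads were trimmed with Trimmomatic and aligned to GRCm39 by STAR, and the authors deposited unnormalized featureCounts (Subread) read counts, whole numbers for each Ensembl gene. The strand setting of the counting is not given in the sources used here, the methods name a total RNA and an mRNA stranded kit, and their annotation release differs from the one used below. The precision of a value is limited by these counts, of which 9842813 to 27601208 were assigned per library.

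Gene names and lengths were taken from GENCODE M39, which named 54749 of the 55416 genes and left 667 unmatched. Groups came from the deposited labels. Counts of each tissue were fitted with edgeR 4.0.16 in R 4.3.3 (filterByExpr, TMM factors, glmQLFit and glmQLFTest, 4 group means, 24 libraries), and p-values are two-sided with Benjamini-Hochberg adjustment over all genes tested. A gene was called at an absolute log2FC of 1 or more with an adjusted p-value up to 0.055 in eWAT, liver and between tissues, and at an adjusted p-value under 0.05 in the pituitary. Each SE was derived from the log2FC and its F statistic. Tissues were contrasted over all 72 libraries with TMM factors computed over them together, while CPM values used the factors of each tissue alone. TPM values used merged exon lengths, and log2 CPM a prior count of 2.

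Genes named are all 9 members, genes of the wider complement list that were called in eWAT or liver or had the highest TPM of a tissue, the 3 genes most like each member by Pearson's r of deviations from group means, and markers that moved with a member. The members, the lists and the tests were chosen with earlier results of these data known. Nothing says that mice of a group came from separate litters, so p-values measure the spread between these mice. Same-numbered libraries come from the same mouse according to the labels, and their deviations from the group means had median correlations of 0.0276 to 0.0355 between tissues. Identical libraries were not found. The alternatives were limma 3.58.1 voom with and without quality weights, DESeq2 1.42.0, other size factors and filters, fewer groups, the range of animal numbers as a covariate, the mouse as a block and library totals between tissues, other gene lengths and each mouse left out. Scripts were tested on simulated data.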

Additional observations from a re-analysis of the deposited data

Results flagged for a closer look

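The highest and lowest mouse of each group of 6 was tested with Dixon's limit for all 9 members in all 3 tissues, *Cfb* in the pituitary excepted. About 1 in 20 groups passes it by chance, and the 2 groups that passed it are fewer than that share. *C6* in the eWAT of FED-CTRL mouse 24 stood at 38.4 CPM, against a group median of 14.9 CPM and a lowest value of 11.6 CPM. *C5ar1* in the pituitary of FED-HFD mouse 23 stood at 0.406 CPM, which is 9 counts, against 1.21 to 1.98 CPM in the other 5 mice, while the eWAT of the same mouse held the highest *C5ar1* of all libraries.

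The eWAT response to the HFD differed between sons of FED and CR20 dams for both receptors, by the interaction test of edgeR with Benjamini-Hochberg adjustment. The interaction log2FC was -2.35 for *C3ar1* and -2.20 for *C5ar1*, each with an adjusted p-value of 0.0322. *C3ar1* was higher on the HFD in 36 of 36 pairs of FED mice and in 8 of 36 pairs of CR20 mice, and *C5ar1* in 36 of 36 and in 10 of 36.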

How the results depend on the processing

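The calls of *C3ar1* and *C5ar1* in eWAT held in 11 of 11 alternatives and in 24 of 24 fits without 1 mouse. In FED-HFD vs FED-CTRL the log2FC without 1 mouse ran from 1.35 to 2.02 and from 1.37 to 2.04. In CR20-HFD vs FED-HFD it ran from -2.41 to -1.73 and from -2.13 to -1.46. Not all of these fits could have lost a call. A looser fold limit of 0.58 is among the alternatives and keeps every call made at the limit of 1. Some fits without 1 mouse left out a mouse of a group not compared, so the compared mice stayed the same. In the HFD vs CTRL contrast averaged over both maternal groups, added after seeing the data, 0 members were called in eWAT in place of 2, since FED and CR20 sons enter it together. The eWAT interaction is the least stable result: limma voom without quality weights called 0 members, and the fits without 1 mouse called 0 to 2, with 0 in 9 of 24 (without FED-CTRL 15, 16, 41 or 42, CR20-CTRL 5, 47 or 49, or CR20-HFD 31 or 32). Between liver and pituitary, library totals in place of TMM factors gave 4 members called in place of 8 (*Cfb* included), because this scaling moved the median gene by -0.61 on the log2 scale, and between liver and eWAT they gave 7 in place of 5.

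The mouse was also fitted as a block between tissues, since the 3 libraries of a mouse are paired by its number. With this replicate block 5, 8 and 9 members were called for liver vs eWAT, liver vs pituitary and eWAT vs pituitary, and it changed no call. These counts include *Cfb*, which was too low to be tested within the pituitary. Within a tissue, pups of a dam were divided between the diets, but the litters are not given in the sources used here, so they could not be fitted as pairs.

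Members that were not called changed sign in some alternatives, the largest shift being liver *C1qa* in CR20-CTRL vs FED-CTRL. TPM means moved by over 1 SD in 87 of 216 cases with another gene length, and the gene most like a member was also first by rho in 8 of 18 cases. Depth limits *Cfb* and *C6* in the pituitary and the receptors in liver.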
